A study of Mus musculus with 40 samples.

Results

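The 4 libraries described here hold RNA of ES-motor neurons from co-cultures whose ES-astrocytes had received complement component 1Q (C1Q) together with complement component 5 (C5) for 24 h. They were chosen by their labels from the 40 libraries of the series and are compared with the 4 libraries of ES-motor neurons from control co-cultures. Both cell types were differentiated from an embryonic stem cell line of B6.Cg-Tg(Hlxb9-GFP)1Tmj/J mice with retinoic acid and smoothened agonist, and all groups share this reporter, in which the promoter of Hb9 (today *Mnx1*) drives enhanced green fluorescent protein. ES-motor neurons were sorted by fluorescence, plated on top of the ES-astrocytes and sorted again into samples of about 200 cells, from which polyadenylated RNA was copied into cDNA and sequenced. The labels name the 4 libraries of each group biological replicates and letter them A to D. The reporter selects cells by activity of the Hb9 promoter, so the sort and the level of *Mnx1* are linked by design.

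C1Q is the recognition component of the classical complement pathway, and C5 is cleaved late in the cascade into C5a, which acts through receptors on cells, and C5b, which starts assembly of the membrane attack complex. In the nervous system, complement tags synapses and damaged cells for removal, and astrocytes are both a source and a target of complement proteins. Motor neurons are marked by homeobox factors such as *Mnx1*, *Isl1* and *Lhx4*, and by genes of acetylcholine synthesis and transport.

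The depth of the libraries differed widely. In the C1Q and C5 group, replicate A held 6557 counts on 2697 genes, replicate B 1414904 counts on 10909 genes, replicate C 1146186 counts on 10141 genes and replicate D 3285492 counts on 12290 genes. In the control group, replicate A held 1280778 counts on 12173 genes, replicate B 19717324 on 16274, replicate C 240859 on 8885 and replicate D 2383502 on 11242. C1Q and C5 replicate A and control replicate C lay under 20% of the median of all 40 libraries, 2459460.5 counts. Levels are given in CPM, with library sizes adjusted by the TMM method of edgeR. A single count came to 62.7 CPM in C1Q and C5 replicate A, and the floor of 3 counts, below which a gene at 0 cannot be told from a low level, was 188 CPM there and 0.158 to 13.3 CPM in the other 7 libraries. Such floors and the intervals of counts cover counting error only. Across genes, the Spearman correlation of replicate A with the other 7 libraries was 0.453 to 0.541, against 0.684 to 0.857 among those 7, and values without it are therefore given beside the counts of calls, the lists and many of the genes below.

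**Figure D1:**
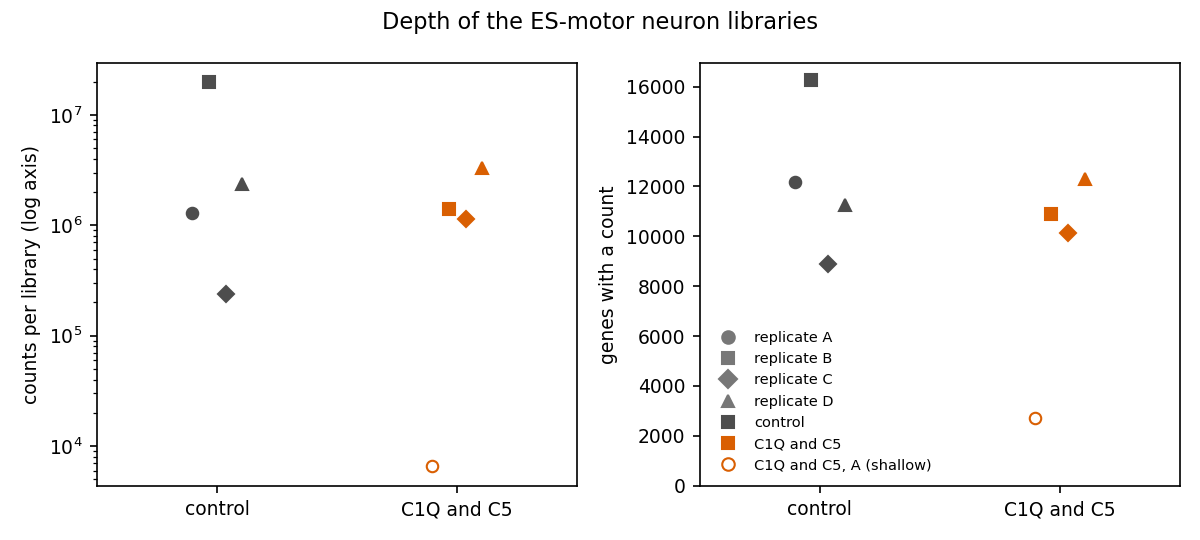
Depth of the 8 ES-motor neuron libraries. The left panel shows the counts on genes per library on a log axis and the right panel the number of genes with at least 1 count, with 1 point per library (control grey, C1Q and C5 orange). C1Q and C5 replicate A, drawn open, holds 6557 counts on 2697 genes.

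By the authors' sample sheet, the control libraries carry plate index 1 and the C1Q and C5 libraries plate index 2, so the stimulus and the plate cannot be told apart. The second index primer was S338 for replicates A and C and S340 for replicates B and D in both groups, and so is balanced. The share of counts on 37 mitochondrial genes was 3.10, 3.93, 4.28 and 3.36% in C1Q and C5 replicates A to D and 2.88, 4.09, 3.40 and 3.58% in the controls, and these ranges overlap. The share on 81 ribosomal protein genes was 1.99 to 2.59% with C1Q and C5 and 1.07 to 2.18% in the controls, which also overlap.

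Over all genes, no gene was called different between ES-motor neurons of the C1Q and C5 co-cultures and the controls. Of 7348 genes tested with edgeR's quasi-likelihood test, 0 had an adjusted p (Benjamini-Hochberg) of 0.05 or less together with an absolute log2 fold change above 1 (0.0% higher, 0.0% lower), and the smallest adjusted p was 0.149. DESeq2 and limma-voom with quality weights also called 0 genes. At an unadjusted p under 0.05 edgeR counted 322 genes, 100 higher (1.36%) and 222 lower (3.02%), DESeq2 286 and limma-voom 841. The median log2 fold change over the genes tested was -0.06. Without control replicate D the count at an unadjusted p under 0.05 was 626 and 2 genes were called higher (edgeR, Benjamini-Hochberg adjusted p = 0.0357 for each, up to 1.00 in other settings), *Snd1* at a log2 fold change of 2.67 (SE 0.51) and *Lsm14b* at 3.09 (SE 0.57), against 1.70 and 1.80 with all 8 libraries. Without C1Q and C5 replicate C that count was 507, with 0 calls. With a common biological coefficient of variation of 0.577, replicates of a group differed widely from each other.

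Leaving out C1Q and C5 replicate A changed the calls of DESeq2 but not those of edgeR and limma-voom. Of 8168 genes then tested, edgeR called 0, with a smallest adjusted p of 0.831, and 432 had an unadjusted p under 0.05, 181 higher (2.22%) and 251 lower (3.07%). DESeq2 without replicate A called 9 genes, all lower (*Shisa5*, *Trmt61b*, *Tfe3*, *Bcl2*, *Fam221a*, *Ckap2*, *Mterf4*, *Spin2c* and *Zfp354a*), and limma-voom called 0. At an unadjusted p under 0.05 DESeq2 then had 870 genes, 287 higher and 583 lower, and limma-voom 966. With all 8 libraries, 31 genes lay higher in every C1Q and C5 library than in any control (0.422%) and 201 lay lower (2.74%). Without replicate A these counts were 284 (3.48%) and 309 (3.78%). For values without ties, chance gives 1.43% in each direction with 4 against 4 libraries and 2.86% with 3 against 4. Replicate A had no count for 163 of the 201 genes that lay lower, and for 65.5% of all genes tested, and exactly 1 count for 21 of the 31 that lay higher.

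All 8 libraries held counts of the motor neuron genes *Mnx1* and *Lhx4*, and *Mnx1* had the smallest unadjusted p of the identity genes. *Mnx1* (chromosome 5, 29473034 to 29478470, minus strand, GENCODE M21) stood at 627, 420, 334 and 502 CPM in C1Q and C5 replicates A to D, and at 1638, 1818, 823 and 580 CPM in the controls. The highest C1Q and C5 library thus overlapped the lowest control, and without replicate A the groups did not overlap. The log2 fold change was -1.44 (SE 0.46, unadjusted p = 0.00395), and -1.56 (unadjusted p = 0.00122) without replicate A. Neither passed the test, with edgeR adjusted p values (Benjamini-Hochberg) of 0.997 and 0.831, and over all settings tried the adjusted p ranged from 0.0529 to 1.00. Within index primer S338 the log2 fold change was -1.42 and within S340 -1.45. Against ES-motor neurons of the other 3 stimuli the log2 fold change of *Mnx1* was -1.47 (SE 0.55, edgeR adjusted p = 0.779), where the 12 libraries of those stimuli ranged from 377 to 4291 CPM.

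The summed CPM of the 18 motor neuron identity genes was 1253, 1780, 1679 and 1830 in the C1Q and C5 libraries and 3192, 2793, 1904 and 2181 in the controls. The 4 C1Q and C5 libraries lay below all 4 controls (p = 0.0286 in a two-sided exact permutation test, the lowest value possible with 4 and 4 libraries), 1 of 14 library measures so compared, over which its Benjamini-Hochberg adjusted p was 0.400. Without replicate A the group means differed by -755 CPM (exact permutation p = 0.0857), and replicates B to D still lay below all 4 controls. With plain library totals in place of TMM the sum in replicate A was 3130 CPM, the highest of all 8, and in B to D 1472, 1391 and 1530 CPM, against 2828, 2764, 1822 and 1817 CPM. Without *Mnx1* the sum was 627, 1359, 1345 and 1327 CPM against 1554, 974, 1080 and 1601 CPM, which overlap, and *Mnx1* alone overlapped as well. In sorted bulk samples, fewer cells of a type and less RNA per cell cannot be told apart.

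**Figure D2:**
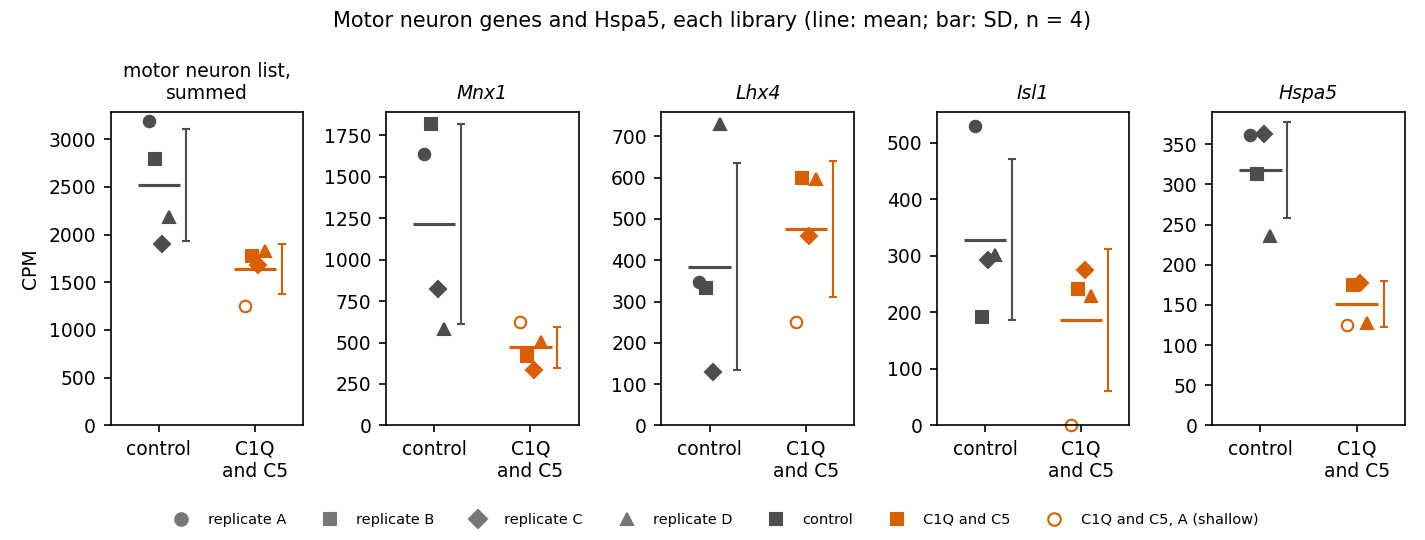
CPM of the summed motor neuron list, *Mnx1*, *Lhx4*, *Isl1* and *Hspa5* in each ES-motor neuron library, with the mean (line) and SD (bar, n = 4) of each group. C1Q and C5 replicate A is drawn open. With TMM scaling the groups do not overlap for the summed list and for *Hspa5*, where replicate A holds 2 counts, and overlap for *Mnx1*, *Lhx4* and *Isl1*.

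The other homeobox genes of motor neurons overlapped between the groups. *Lhx4* stood at 251, 600, 458 and 597 CPM against 347, 333, 128 and 730 CPM (log2 fold change 0.38, SE 0.44, without replicate A 0.50). *Isl1* stood at 0, 242, 274 and 228 CPM against 529, 192, 292 and 301 CPM (-0.55, SE 0.43, without replicate A -0.43), its 0 being below the floor of replicate A. *Isl2* had -0.34 (SE 0.95), *Hoxa5* 0.12 (SE 0.70) and *Onecut2* -0.19 (SE 0.45). Over the 8 identity genes tested of 18 the median log2 fold change was -0.20, against -0.06 over all genes tested, with 2 positive and 6 negative (without replicate A -0.23, with 3 and 5). *Chat*, the enzyme that makes acetylcholine, was at 0, 14.8, 5.36 and 5.95 CPM against 8.09, 18.5, 4.43 and 28.8 CPM, too low to be tested with all 8 libraries. In GENCODE M21 *Chat* overlaps *Slc18a3* on the same strand and *Gm2990* on the other. Among 8 cholinergic genes tested, 4 had positive and 4 negative values (median 0.10), and without replicate A 6 of 9 were positive (median 0.05). *Chrna4*, a nicotinic receptor subunit named after its value was seen, had the only unadjusted p under 0.05, with a log2 fold change of 1.71 (SE 0.68).

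*Nefl*, the light neurofilament chain of motor axons, stood at 627, 2396, 2619 and 2485 CPM against 1968, 1708, 1678 and 2679 CPM. Its replicate A value lay far under the rest, and the log2 fold change was 0.06 (SE 0.47) with replicate A and 0.30 without. Of 19 cytoskeletal and axonal genes tested, 10 were positive and 9 negative, with a median of 0.02, and without replicate A of 0.16 with 12 positive and 7 negative. The most abundant by the mean of all 8 libraries, the microtubule protein gene *Map1b*, had a log2 fold change of -1.02 (SE 0.57, unadjusted p = 0.0828), and -0.84 (unadjusted p = 0.0425) without replicate A, with overlapping groups. *Nefm*, the medium neurofilament chain, named after its values were seen, went the other way, with 0.90 (SE 0.49, unadjusted p = 0.0726), and 1.16 (SE 0.36, unadjusted p = 0.00476) without replicate A, where its groups did not overlap. In GENCODE M21 *Nefl* and *Nefm* overlap on opposite strands, and the strand setting of the counting is not given in the sources used here. Reads of this pair cannot be told apart where the genes overlap. For the axon injury and regeneration list, 8 genes were tested, 2 positive and 6 negative (median -0.21, without replicate A -0.11). Its most abundant member, the transcription factor gene *Sox11*, stood at 4636, 9219, 12411 and 12757 CPM against 32774, 17297, 23487 and 11363 CPM (log2 fold change -1.11, SE 0.57, unadjusted p = 0.0603, and -0.92 at an unadjusted p = 0.0211 without replicate A), with groups that overlap through control replicate D. *Jun*, an injury-induced transcription factor gene named after its values were seen, had a log2 fold change of -0.10 (SE 0.50). Of 13 synaptic vesicle genes tested, 10 were positive and 3 negative (median 0.37, without replicate A 0.41), none at an unadjusted p under 0.05.

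The genes of smallest p lay on the lower side and had no count in any C1Q and C5 library. *Shisa5*, which encodes a p53-inducible membrane protein, had 0 counts in all 4 and stood at 12.6, 25.3, 26.6 and 32.4 CPM in the controls (edgeR adjusted p = 0.149, Benjamini-Hochberg), at least 40.3-fold lower when the summed counts are set against a floor of 3 counts over the group. *Trmt61b*, a tRNA methyltransferase gene of mitochondria, had 0 counts against 24.3, 17.9, 31.0 and 20.5 CPM, at least 29.6-fold lower (adjusted p = 0.149). *Tfe3*, a transcription factor gene of lysosome biogenesis, had 0 counts against 9.89, 10.5, 17.7 and 30.3 CPM, at least 19.5-fold lower (adjusted p = 0.538). The zeros of replicate A say little, since its floor is 188 CPM, and those that carry weight are of replicates B, C and D, with floors of 2.62, 3.21 and 1.12 CPM. Without replicate A, DESeq2 called all 3 (Benjamini-Hochberg adjusted p of 0.00119 for *Shisa5* and *Trmt61b* and 0.0211 for *Tfe3*), while edgeR did not, and over all settings tried their largest adjusted p was 1.00.

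Against the other 3 stimuli these 3 genes were also lower but not called, with edgeR adjusted p values (Benjamini-Hochberg) of 0.507 for *Shisa5*, 0.324 for *Trmt61b* and 0.760 for *Tfe3*. Libraries at 0 were also found there, such as TGF-β2 replicate A, which held 283205 counts and no count of any of the 3 genes. Every such library for *Shisa5* and *Trmt61b* lay under 20% of the median total, so these zeros say little. *Tfe3* was also at 0 in TGF-β2 replicate C, which held 1695346 counts. *Trmt61b* (chromosome 17, 71557027 to 71598755, minus strand) is annotated as antisense in GENCODE M21 and overlaps *Spdya* on the other strand, and the strand setting of the counting is not given in the sources used here, so reads of the pair cannot be told apart.

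The 5 other genes of smallest p on the lower side had counts in at least 1 C1Q and C5 library. *Ckap2*, a spindle protein gene, had 3 counts in the C1Q and C5 libraries, a ratio of 46.9 in favour of the controls (95% Clopper-Pearson interval 15.97 to 228), and *Rnf113a2*, which lies within *Bbof1*, had 2 counts, a ratio of 40.9 (11.2 to 339). *Rabep1*, an effector of early endosome fusion, stood at 0, 14.0, 8.57 and 24.5 CPM against 74.6, 53.6, 164 and 44.7 CPM (log2 fold change -2.35, SE 0.60). *Usp25*, a deubiquitinase gene, stood at 0, 12.2, 1.07 and 11.5 CPM against 39.6, 42.7, 111 and 40.6 CPM (-2.74, SE 0.74), and *Cradd*, an adaptor of caspase-2, at 0, 3.49, 0 and 0.372 CPM against 13.5, 29.8, 13.3 and 45.7 CPM (-4.40, SE 1.20). All 5 had higher levels in each control than in any C1Q and C5 library, a property that the choice of these genes fixed, and none passed edgeR's test with all 8 libraries. DESeq2 without replicate A called *Ckap2* (Benjamini-Hochberg adjusted p = 0.0295). With the libraries of index primer S338 alone, edgeR called *Usp25* (adjusted p = 0.0365), 1 of 38 calls among 5752 genes, all lower. That split, chosen after seeing the data, sets 2 against 2 libraries and holds C1Q and C5 replicate A and control replicate C, the shallow ones. Index primer S340 alone gave 0 calls. For *Ckap2* and *Usp25* the largest adjusted p over the settings tried was 1.00. Over leaving out each library in turn, the log2 fold change ranged from -6.52 to -3.86 for *Cradd* and from -9.29 to -4.35 for *Rnf113a2*. With all 8 libraries that of *Rnf113a2* was -5.19, and its 2 counts were both in C1Q and C5 replicate C.

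On the higher side, the 8 genes of smallest p without overlap had log2 fold changes from 1.09 to 4.08. *Nectin2*, a cell adhesion molecule gene that overlaps the antisense gene *Gm20512*, stood at 62.7, 48.8, 22.5 and 11.5 CPM against 2.70, 1.79, 0 and 1.54 CPM (4.08, SE 1.08, edgeR adjusted p = 0.810). *Napb*, a SNARE recycling protein gene, stood at 62.7, 64.6, 93.2 and 77.7 CPM against 35.1, 27.9, 26.6 and 26.2 CPM (1.41, SE 0.50, edgeR adjusted p = 0.997). *Nrcam*, a neuronal adhesion molecule gene, stood at 125, 120, 117 and 102 CPM against 49.5, 56.5, 88.5 and 29.3 CPM (1.09, SE 0.45). In these genes replicate A adds little, since 7 of the 8 had exactly 1 count in it and *Nrcam* had 2. The other 5 were *Vkorc1* of the vitamin K cycle (2.36, SE 0.81), the zinc finger gene *Zfp532* (1.45, SE 0.53), *Acaca* of fatty acid synthesis (2.11, SE 0.81), *Cds2* of phospholipid synthesis (1.60, SE 0.62) and the interferon gamma receptor chain *Ifngr2* (1.14, SE 0.50). *Vkorc1* shares its position with the read-through gene *Gm21974*. *Acaca* and *Zfp532*, and *Rabep1* and *Cradd* on the lower side, overlap genes on the other strand. Without the strand setting, reads of such pairs cannot be told apart. Without replicate A the log2 fold changes of the 8 higher genes ran from 1.05 to 3.92. Over leaving out each library in turn the lowest was 0.80 for *Cds2*, which was at 0.49 in index primer S338 alone. That they stayed positive was fixed by the choice of these genes, whose libraries do not overlap.

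Genes of the unfolded protein and integrated stress response, which restore protein folding in the endoplasmic reticulum, had mostly negative values. Of 25 genes all had a count and 20 were tested, 2 positive and 18 negative, with a median log2 fold change of -0.55 (4 and 16 with a median of -0.52 without replicate A), where all genes tested had 3357 positive, 3991 negative and a median of -0.06. None was called, and 2, both lower, had an unadjusted p under 0.05, where 1.36% of all genes tested were higher and 3.02% lower. Members of this list were chosen with earlier results of these data known and were measured in the same libraries. Their counts of signs therefore describe the list and are not a test. *Hspa5*, the main chaperone of the endoplasmic reticulum, stood at 125, 175, 177 and 127 CPM against 361, 312, 363 and 235 CPM. Each C1Q and C5 library lay below each control after TMM scaling. The value of replicate A is 2 counts, which with plain library totals is 313 CPM, above control replicates B (309 CPM) and D (196 CPM). The gene had a log2 fold change of -1.01 (SE 0.38, unadjusted p = 0.0127, edgeR adjusted p = 0.997) and -1.02 without replicate A (unadjusted p = 0.00615). Over leaving out each library in turn, its log2 fold change ranged from -1.17 to -0.90.

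*Xbp1*, a transcription factor of this response, stood at 125, 5.23, 0 and 27.9 CPM against 184, 113, 57.6 and 33.9 CPM. The groups overlapped through replicate A, whose value is 2 counts, and the log2 fold change was -2.80 (SE 0.79, unadjusted p = 0.00131, edgeR adjusted p = 0.828) with it and -3.05 without, and ranged from -4.48 to -2.27 over leaving out each library in turn. *Sesn2* stood at 0, 9.60, 6.43 and 2.23 CPM against 22.5, 29.7, 13.3 and 15.9 CPM without overlap, while *Ddit3*, the factor of stress-induced apoptosis, had a log2 fold change of -0.28 (SE 0.64). *Xbp1*, *Sesn2* and *Ddit3* were named after their values were seen. The most abundant member, the chaperone gene *Canx*, had a log2 fold change of -0.10 (SE 0.53), and of 0.19 (SE 0.38) without replicate A, which held 2 counts of it. *Asns*, an enzyme induced by amino acid shortage, had -0.54 (SE 0.39). Against the other 3 stimuli the log2 fold change was -0.47 (SE 0.37) for *Hspa5* and -2.44 (SE 0.87) for *Xbp1*, with edgeR adjusted p values (Benjamini-Hochberg) of 1.00 and 0.760. Of the cytosolic heat shock genes, *Hspa8* stood at 188, 400, 343 and 335 CPM against 470, 619, 522 and 546 CPM (-0.67, SE 0.39, without replicate A -0.60). These do not overlap, but replicate A holds 3 counts, and with plain library totals it overlaps the controls. The list of immediate early and heat shock genes had 5 positive and 3 negative of 8 tested (median 0.07, without replicate A 0.14).

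Nuclear genes of the respiratory chain had mostly positive values, in a list whose members were also chosen with earlier results of these data known. All 29 were tested, 23 positive and 6 negative, with a median log2 fold change of 0.35, and 24 and 5 with a median of 0.44 without replicate A. With replicate A, 1 was higher and 1 lower at an unadjusted p under 0.05, where 1.36% of all genes tested were higher and 3.02% lower. Without replicate A 8 were higher and 1 lower, where 2.22% of all genes tested were higher and 3.07% lower. *Atp5g3*, a subunit of ATP synthase, stood at 313, 655, 723 and 578 CPM against 236, 341, 151 and 491 CPM (0.96, SE 0.42, edgeR adjusted p = 0.997), and lay above all controls only without replicate A. *Cox7a2* of complex IV stood at 125, 1533, 1170 and 1246 CPM against 665, 689, 354 and 1118 CPM, with a log2 fold change of 0.62 (SE 0.48) and, without replicate A, 0.88. *Uqcrc1* of complex III went against the rest, at 313, 127, 104 and 174 CPM against 454, 514, 297 and 202 CPM (-1.31, SE 0.43, edgeR adjusted p = 0.997). *Atp5g3* and *Uqcrc1* were named after their values were seen. The 7 tested genes encoded by mitochondrial DNA had a median of 0.08, with 4 positive and 3 negative, and without replicate A of 0.24, with 6 positive and 1 negative.

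**Figure D3:**
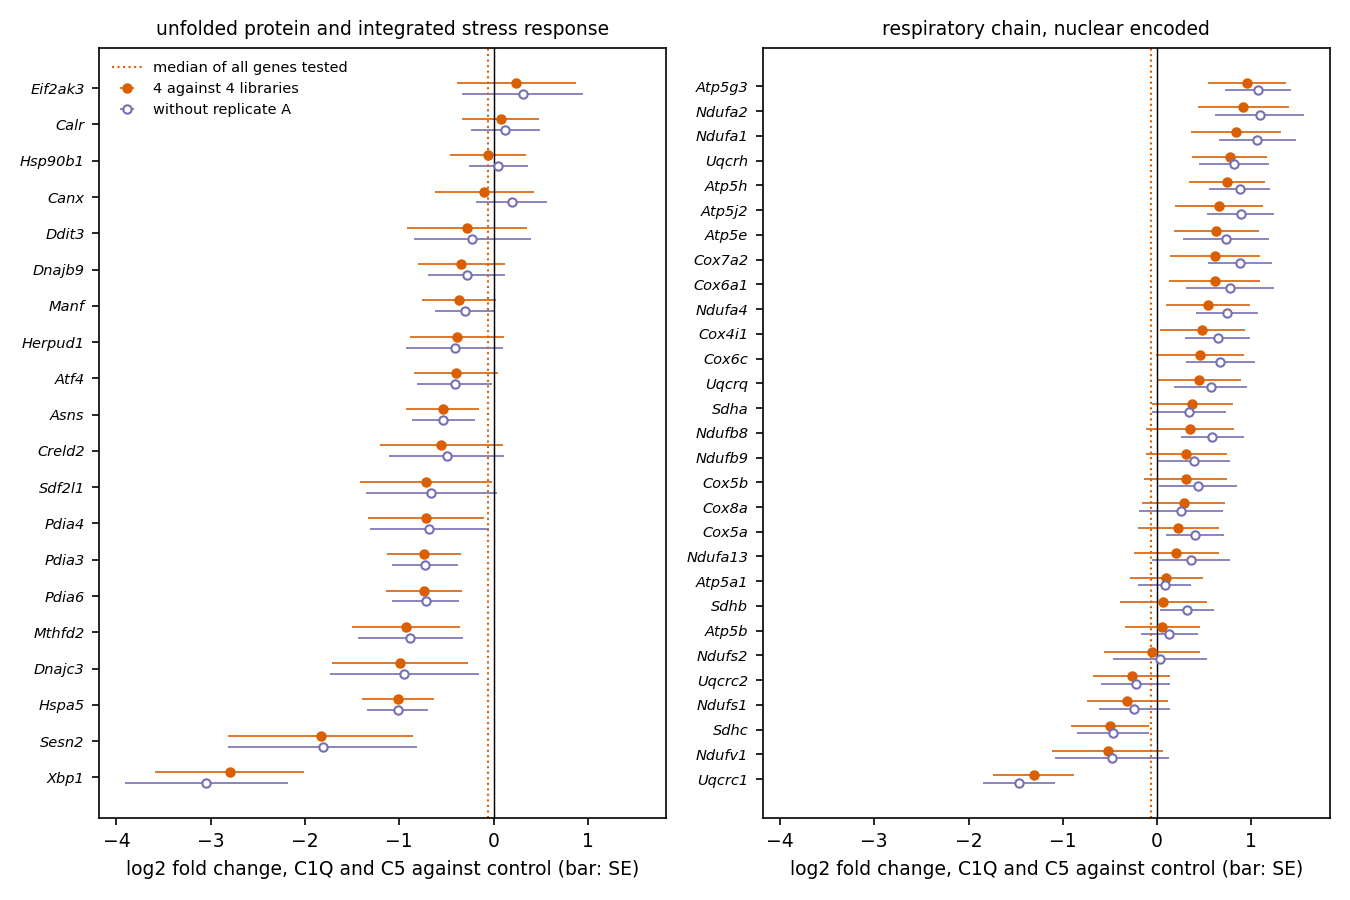
Log2 fold change with SE (bar) of each tested gene of the unfolded protein and integrated stress response (left) and of the nuclear-encoded respiratory chain (right), C1Q and C5 against control. Filled points use 4 against 4 libraries, open points leave out C1Q and C5 replicate A, and the dotted line marks the median of all genes tested, -0.06. In the left panel 18 of 20 genes lie below 0 and in the right panel 23 of 29 above 0, and none was called.

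Receptor genes for C5a and C3a had no count or almost none in ES-motor neurons, while the C1Q-binding *Calr* and *C1qbp* had counts in all 8 libraries. Of 26 receptors and regulators of complement, 16 had a count in any of the 8 libraries and 8 were tested, 5 positive and 3 negative (median 0.26, without replicate A 0.12), none with an unadjusted p under 0.05. The C5a receptor genes *C5ar1* and *C5ar2* had no count, and the C3a receptor gene *C3ar1* had counts in C1Q and C5 replicate B alone, at 1.74 CPM. *Calr*, which binds C1Q at the cell surface besides its role as a chaperone, stood at 62.7, 167, 131 and 139 CPM against 110, 186, 70.8 and 149 CPM. *C1qbp*, a mitochondrial protein that also binds C1Q, stood at 62.7, 75.9, 80.3 and 93.0 CPM against 65.6, 154, 22.1 and 79.6 CPM. Both overlapped, with log2 fold changes of 0.07 (SE 0.41) and -0.04 (SE 0.48).

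*Cd47*, a signal against phagocytosis, stood at 62.7, 109, 67.5 and 102 CPM against 169, 115, 248 and 89.9 CPM (log2 fold change -0.73, SE 0.43, unadjusted p = 0.0967). It overlapped through control replicate D. *Megf11*, a relative of the C1Q receptor *Megf10*, had a log2 fold change of 0.58 (SE 0.48), and the regulators *Cd59a*, which blocks the membrane attack complex, and *Cr1l*, which limits C3 activation, had -0.44 (SE 0.85) and 0.44 (SE 0.65). *Csmd2* and *Sez6l2* of the complement-related synaptic proteins had 0.55 (SE 1.21) and 0.44 (SE 1.54), and the value of *Sez6l2* was -0.54 without replicate A, where 2 counts stand for 125 CPM. The remaining 7, *Cd46*, *Cd55*, *Lrp1*, *Cr2*, *Csmd1*, *Sez6* and *Sez6l*, reached at most 21.2 CPM in any library and were not tested with all 8 libraries.

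Of the complement factors themselves few transcripts were found. Of 22 such genes 7 had a count and 1, the C1 inhibitor gene *Serping1*, was tested (log2 fold change -0.65, SE 1.15), while *Masp1* and *Cfp* reached at most 15.0 CPM in any library. Few of the downstream response genes were abundant enough to be tested. Of 23 NF-κB and cytokine genes 13 had a count and 2 were tested, *Sod2* at 0.09 (SE 0.37) and *Stat3* at -0.29 (SE 0.57). Of 24 interferon and MHC class I genes 10 had a count and 6 were tested. These 6 had 3 positive and 3 negative values (median -0.01, without replicate A -0.07). *B2m*, the light chain of MHC class I, had a log2 fold change of 0.15 (SE 0.54).

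Apoptosis and p53 target genes showed no call by edgeR among 15 tested, 6 positive and 9 negative, with a median of -0.23 and, without replicate A, -0.31. *Bcl2*, an inhibitor of apoptosis too low to be tested with all 8 libraries, was called lower by DESeq2 without replicate A (log2 fold change -7.12, SE 1.59, Benjamini-Hochberg adjusted p = 0.0211) but not by edgeR or limma-voom. Of the 15 tested, *Casp9*, the initiator caspase of the mitochondrial pathway, had 1.14 (SE 0.51, unadjusted p = 0.0320) and *Xiap*, an inhibitor of caspases, -1.74 (SE 0.73, unadjusted p = 0.0224), both named after their values were seen. For *Casp9* replicates B to D stood at 81.1, 98.5 and 67.7 CPM against 23.4, 41.3, 31.0 and 40.6 CPM in the controls, with 0 in replicate A, below its floor. *Bax*, which permeabilises mitochondria, had a log2 fold change of -0.42 (SE 0.47), *Ccng1*, a p53 target, -0.45 (SE 0.49) and *Cycs*, cytochrome c, 0.28 (SE 0.38).

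In the remaining lists no tested gene had an unadjusted p under 0.05 with all 8 libraries. Of 7 glutamate, GABA and glycine receptor genes tested, 4 were positive (median 0.18), of 11 ion channel genes 7 (median 0.09), of 8 neurotrophic factor receptor genes 3 (median -0.09), of 16 axon guidance genes 7 (median -0.08) and of 8 cell cycle genes 5 (median 0.18). Without replicate A these medians were 0.0051, -0.03, -0.02, 0.10 and 0.17. The most abundant of these genes was the axon repellent *Slit2*, at 564, 1119, 910 and 946 CPM against 1193, 952, 970 and 933 CPM (log2 fold change -0.15, SE 0.42).

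Markers of other cells gave the following levels. The 23 astrocyte and radial glia genes summed to 313, 1147, 1362 and 1086 CPM against 1209, 902, 1023 and 1109 CPM (exact two-sided permutation p = 0.886, without replicate A 0.257), 17 of the 23 had a count, and *Vim* was the most abundant. The next most abundant were *Sox9*, at 0, 389, 435 and 339 CPM against 500, 150, 208 and 354 CPM, and *Id3*. *Id3* stood at 125, 84.6, 55.7 and 104 CPM against 95.3, 155, 62.0 and 44.7 CPM. The other 6 of the 23 genes, among them *Aldh1l1*, *Aqp4* and *Gja1*, were at 0 in all 8 libraries. Of the 7 genes of this list that were tested, 4 were positive and 3 negative (median 0.16, without replicate A 0.32). Neural progenitor genes summed to 0, 61.1, 75.0 and 128 CPM against 90.8, 59.0, 102 and 58.5 CPM (2 tested, median -0.31), and oligodendrocyte genes to 0, 11.3, 7.50 and 24.5 CPM against 21.6, 20.4, 53.1 and 12.8 CPM (1 tested, *Cnp*, -0.06). Other spinal and hindbrain neuron genes summed to 0, 4.36, 40.7 and 47.2 CPM against 45.9, 24.8, 31.0 and 1.54 CPM, with *Lhx1* the most abundant and the 1 tested (0.53, SE 0.89), while the glutamate and GABA transporter genes *Slc17a6*, *Slc17a7* and *Slc32a1* were at 0 in all 8 libraries.

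Microglial genes summed to at most 24.2 CPM in any library, with *Csf1r* the most abundant and 10 of 12 genes, among them *Aif1*, *Cx3cr1* and *P2ry12*, at 0. In the fibroblast list, C1Q and C5 replicate A reached 62.7 CPM, which is 1 count of *Fn1*, and no other library exceeded 7.16 CPM. Pluripotency genes reached 7.07 CPM in C1Q and C5 replicate D, all of it *Dppa3*, and endothelial and blood genes 0.631 CPM in control replicate B. No gene of these 4 lists was tested with all 8 libraries, the groups overlapped in each summed level, and the part of other cells in the values above was not tested.

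To ask whether the C1Q and C5 libraries stand apart from the other stimulated co-cultures, they were compared with the mean of ES-motor neurons on ES-astrocytes given IL-1α and TNF-α, IL-1β and IL-6, or TGF-β2. The contrast leaves out the controls, whose libraries still enter the filter, the scaling and the dispersion of this fit. Of 9479 genes tested, 1 was called higher (0.0105%) and 0 lower (0.0%), and 493 had an unadjusted p under 0.05. The gene was *AC122252.2*, a long intergenic non-coding RNA of unknown role (chromosome 17, 26467560 to 26503200, minus strand), with a log2 fold change of 6.21 (SE 1.13, edgeR adjusted p = 0.0389, Benjamini-Hochberg). It had 0, 118, 0 and 90 counts in C1Q and C5 replicates A to D, which is 98.9 CPM in B and 32.8 CPM in D, both with index primer S340. In the other 12 stimulated libraries it reached at most 18.4 CPM, and in the controls at most 2.96 CPM.

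The gene thus had counts in 2 of 4 libraries. The call was lost without C1Q and C5 replicate A (smallest adjusted p 0.0801), replicate B (0.361) or replicate D (0.0800), and kept without replicate C, where the log2 fold change was 6.65 and the edgeR adjusted p 0.00402. Leaving out single libraries of the other groups kept the call in 4 cases, controls B and D and IL-1β and IL-6 replicates A and C, and lost it in the other 12. Against the 2 stimuli of the same plate index the gene was also called (8.21, SE 1.44, edgeR adjusted p = 0.0212). DESeq2 called 3 genes lower in its place, *Dok5* at -4.41 (SE 0.89), *Slc37a3* at -4.77 (SE 1.07) and *Sys1* at -2.59 (SE 0.59), and limma-voom called 0. Over the 32 alternatives the adjusted p of *AC122252.2* ranged from 0.000230 to 0.803.

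To ask whether the difference from control in ES-motor neurons differs from that in the ES-astrocytes they had been cultured on, the interaction with the cell type was tested. Of 11352 genes, 0 were called higher (0.0%) and 1 lower (0.00881%), and 421 had an unadjusted p under 0.05. *Spock3*, which encodes a secreted proteoglycan (chromosome 8, 62951009 to 63357103, plus strand), had an interaction of -7.25 on the log2 scale (SE 1.03, edgeR adjusted p = 0.00508, Benjamini-Hochberg). In ES-motor neurons it stood at 62.7, 91.6, 207 and 166 CPM with C1Q and C5 and at 175, 143, 230 and 148 CPM in the controls, which overlap (log2 fold change -0.22, SE 0.40). In ES-astrocytes it had 19, 58, 16 and 11 counts with C1Q and C5 and 1, 0, 0 and 0 counts in the controls, which do not overlap, at levels of 1.82 to 12.9 CPM with C1Q and C5. *Spock3* was called without each of the 16 libraries in turn (adjusted p 0.000664 to 0.0311) and by DESeq2, which called 4 others, *Arhgap36* and *Ago4* (-20.86, SE 3.499) lower and *Sstr2* (18.75, SE 3.93) and *Ranbp9* (3.83, SE 0.81) higher. *Spock3* was not called by limma-voom (adjusted p = 0.827), which called 0 genes, nor without the shallow libraries (adjusted p = 0.0603).

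Since *Spock3* was far more abundant in ES-motor neurons than in ES-astrocytes, motor neuron genes were read in the same ES-astrocyte libraries. *Arhgap36*, a gene of the motor neuron list, had 0, 33, 36 and 259 counts with C1Q and C5 and 1, 2, 0 and 0 in the controls, and was called by DESeq2 (interaction -7.96, SE 1.42) but not by edgeR with TMM and its usual filter on all 16 libraries (-7.46, SE 1.30, adjusted p = 0.0507). With TMMwsp, the stricter filter or no filter, edgeR called it too (adjusted p = 0.0484, 0.0492 and 0.0450). *Mnx1* stood at 2.72, 5.96, 4.93 and 21.2 CPM with C1Q and C5 against 22.1, 2.92, 0 and 0.172 CPM, which overlap. The 18 motor neuron genes summed to 936, 750, 960 and 1114 CPM against 432, 1215, 713 and 1224 CPM, which overlap too, with *Onecut2* or *Lhx4* the most abundant in each. The part of ES-motor neuron RNA in the ES-astrocyte values was not tested.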

How the data were processed

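RNA of about 200 sorted cells per sample was measured in 40 samples, of which 4 of the C1Q and C5 group and 4 control ES-motor neuron samples are described, with 12 further ES-motor neuron and 8 ES-astrocyte samples in 2 comparisons. The authors deposited whole-number counts of reads per gene, not normalized, after mapping with STAR. Not given in the sources used here are the version of STAR, the genome build, the annotation, the counting tool and its strand setting. Each column was assigned to its sample by the labels. Of 55487 genes, 55141 were named by GENCODE M21 (build GRCm38), and the others held 0.133% of all counts.

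Counts were tested with edgeR 4.0.16 in R 4.3.3 (filterByExpr with a minimum count of 10, TMM, robust glmQLFit, glmQLFTest). Calls needed an adjusted p (Benjamini-Hochberg, over all genes tested) of 0.05 or less and an absolute log2 fold change above 1. Each SE of edgeR is the absolute log2 fold change divided by the root of its F statistic, and each SE of DESeq2 is the one it reports. The fits were run on simulated counts with large planted changes and the same dispersion for all genes, to check the direction of the calls. That check does not give the power or the error rate of the tests in these data. CPM are counts scaled by TMM to a common library size. For single library measures, two-sided exact permutation tests were used, whose smallest p is 0.0286 for 4 against 4 and also for 3 against 4 libraries. A group at 0 was set to a floor of 3 counts over the group, and 1 to 3 counts were given as a ratio with a 95% Clopper-Pearson interval. Tables and plots were made with matplotlib 3.10.9, scipy 1.17.1, numpy 2.4.6 and pandas 2.3.3 in Python 3.11.15.

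Named genes were every gene called by edgeR with all libraries, the 8 tested genes of smallest unadjusted p in each direction among those whose CPM do not overlap, the 3 members of highest CPM of each list, *Mnx1*, *Isl1*, *Chat* and *Nefl*, and every complement receptor or regulator with a count. Members and lists were chosen with earlier results of these data known. Lists were written from general knowledge and share members, and some members are not reported here. Alternatives were DESeq2 1.42.0 (alpha 0.1), limma-voom of limma 3.58.1 with quality weights, RLE and TMMwsp scaling, no filter and a minimum count of 20, no robust dispersion, the replicate letter as a block, leaving out each library, leaving out libraries under 20% of the median total, other thresholds, and all 20 ES-motor neuron libraries in 1 fit. Library totals alone, the second index primer, the plate, and DESeq2 and limma-voom without replicate A were chosen after seeing the data.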

Additional observations from a re-analysis of the deposited data

Results flagged for a closer look

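In 42 of 226 groups of 4 libraries examined, the highest or lowest library lay apart, its gap to the nearest other library, as a share of the whole range, being above Dixon's critical value for 4 samples at 95%. Chance gives about 1 in 20 such groups for values with normal error, a rate that does not hold for genes at 0 in 3 of 4 libraries, and summed levels and their genes are counted separately. Of the 42, 10 were control replicate B, the deepest library, and 6 were C1Q and C5 replicate A, the shallowest.

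Among library measures, control replicate B held 19717324 counts, and summed to 0.105 CPM for pluripotency genes (*Nanog* and *Esrrb* at 0.0526 CPM each) and to 0.631 CPM for endothelial and blood genes (*Alas2*, 0.631 CPM). In C1Q and C5 replicate A the 50 most counted genes took 24.1% of counts, and fibroblast genes summed to 62.7 CPM (*Fn1*, 62.7 CPM). Control replicate D summed to 13.4 CPM for microglial genes, and C1Q and C5 replicate D to 7.07 CPM for pluripotency genes (*Dppa3*, 7.07 CPM).

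Among identity genes, C1Q and C5 replicate A lay apart for *Isl1* at 0.0 CPM and *Nefl* at 627 CPM. Among the genes of smallest p, C1Q and C5 replicate D lay apart for *Ifngr2* at 111 CPM, replicate B for *Cradd* at 3.49 CPM and replicate C for *Rnf113a2* at 2.14 CPM, and control replicate C for *Usp25* at 111 CPM.

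Among complement genes, the values of the libraries apart rest on 1 to 57 counts. In the C1Q and C5 group these were *C3ar1* at 1.74 CPM and *Cd55* at 10.5 CPM in replicate B, *Masp1* at 15.0 CPM in replicate C, *Cd46* at 14.9 CPM and *Sez6l* at 21.2 CPM in replicate D, and *Sez6l2* at 125 CPM in replicate A. In the controls they were *Cd55* at 8.09 CPM and *Masp1* at 1.80 CPM in replicate A, *Cr2* at 0.263 CPM in replicate B, *Sez6* at 17.7 CPM in replicate C and *Csmd1* at 0.514 CPM in replicate D.

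Of the other lists, C1Q and C5 replicate C lay apart for *Bax* at 53.6 CPM, and replicate D for *Pax6* at 25.3 CPM and for *Acta2* and *Tagln* at 0.372 CPM each. Control replicate A lay apart for *Slit2* at 1193 CPM and for *Gad2* and *Slc6a5* at 8.09 CPM each. Control replicate B lay apart for *Fn1* at 3.47 CPM, *Acta2* at 3.16 CPM and *Pax6* at 4.21 CPM, control replicate C for *Hsp90aa1* at 890 CPM, and control replicate D for *Nfkbia* at 14.4 CPM and *Ifitm2* at 57.0 CPM.

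For *Spock3* edgeR called the interaction with the cell type, -7.25 on the log2 scale (adjusted p = 0.00508, Benjamini-Hochberg). Limma-voom did not call it (adjusted p = 0.827), nor did edgeR without the shallow libraries (adjusted p = 0.0603), and the part of ES-motor neuron RNA in the ES-astrocyte values was not tested.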

How the results depend on the processing

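Depth limits what can be read here, since in C1Q and C5 replicate A a gene at 0 cannot be told from one at up to 188 CPM. For C1Q and C5 against control, 0 genes were called with each other tool, scaling, filter, threshold and fit chosen with the design, and from 0 to 2 over leaving out each library. Of the settings chosen after seeing the data, the libraries of index primer S338 alone (2 against 2, with replicate A among them) gave 38 calls, all lower, S340 alone 0, and DESeq2 without replicate A 9. Against the other 3 stimuli (1 call), DESeq2 gave 3 calls, no filter 206, and limma-voom, RLE, TMMwsp, the stricter filter and library totals 0, from 0 to 1 over leaving out each library. Its fit without the shallow libraries could not be run, since no IL-1α and TNF-α library is left, and against the 2 stimuli left it gave 0. For the interaction (1 call), an adjusted p of at most 0.1 gave 2 calls, DESeq2 5, limma-voom 0, TMMwsp 2, no filter 3, the stricter filter 2 and the fit without shallow libraries 0, from 1 to 2 over leaving out each library. The cause of these differences was not tested.

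By the rule that all 4 letters correlate over 0.1, the letters A to D were not treated as pairs in any comparison. The rule cannot exclude that libraries of the same letter share an origin, and the main fits treat all libraries as independent. Deviations from the group means of C1Q and C5 and control ES-motor neurons correlated across genes at 0.02 for A, -0.022 for B, 0.091 for C and 0.02 for D. Of the 10 pairs of groups in the comparison with the other stimuli 0 had all 4 letters over 0.1, and of the 6 in the interaction 0. Single letters were over 0.1 in 7 of 40 and 2 of 24 correlations, up to 0.502 and 0.203, and a library correlated best with its own letter in 14 of 40 and 7 of 24. TGF-β2 and control ES-motor neurons did so for all 4 letters. With the replicate block the calls were 0 against control, 0 against the other 3 stimuli and 1 for the interaction, and the log2 fold change of *Nefl* was -0.0661.

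The summed motor neuron level differed by -882 CPM between the group means, by -427 CPM with plain library totals, and from -1087 to -657 CPM over leaving out each library. The sign turned with the libraries left out for measures that passed no test, and each range runs over leaving out each library: -6330583 to 161572 for total counts, -0.0253 to 0.379 points for the mitochondrial share, -1.69 to 1.47 points for the share of the 50 most counted genes, and in summed CPM -212 to 138 for astrocytes, -1.90 to 18.98 for fibroblasts, -32.2 to 10.3 for progenitors, -0.0263 to 2.33 for pluripotent cells and -10.8 to 4.96 for other neurons. The log2 fold change of *Nefl*, 0.06, was -0.56 with limma-voom, -0.10 in index primer S338 alone and -0.0721 to 0.301 over leaving out each library. The other 18 genes whose log2 fold change was recomputed kept their sign wherever there was a value. *Shisa5*, *Tfe3* and *Cradd* had none in index primer S338 alone. Among the 18 are the 8 genes of smallest p in each direction. Their choice by libraries that do not overlap fixed the sign over leaving out libraries. Of the medians of the lists 3 moved by more than the SD over the genes of the list (the SE of the gene where 1 was tested) and 89 did not. The 3 were NF-κB and cytokine genes and mitochondrially encoded genes without the shallow libraries, and other neurons without the filter. Of the mean CPM 6 moved by more than the SD of the group, all in the C1Q and C5 group with plain library totals, and 1058 did not.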
